A study of Mus musculus with 6 samples.

Results

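The interleukin 1 family and inflammasome genes were followed here in mouse immune cells as 8 genes chosen by name, all of which were found among the 27378 gene IDs of the deposited table: the ligands Il1a, Il1b and Il18, the antagonists Il1rn and Il18bp, the sensor Nlrp3, and the caspases Casp1 and Casp4. CD45+ cells had been sorted and sequenced with 10x Genomics Single Cell 3' v3 chemistry in 6 libraries. The 2 Rbpj-deleted tumour libraries came from gliomas labelled Trp53 ko and Rbpj ko, the 2 control tumour libraries from gliomas labelled Trp53 ko and Rbpj wt, and the 2 healthy brain libraries from brains labelled wt for both genes. The loss of Trp53 is therefore shared by both tumour groups, and the sorted cells are immune cells, so their own Rbpj and Trp53 RNA does not check the labels. Per the series design, 9 Rbpj-deleted tumours, 15 control tumours and 9 healthy brains were pooled, while the extraction protocol puts each mouse in 1 well. The tumours were at an early stage, and a GFP reporter of Cre activity (Rosa-CAG::GFP) guided their dissection. The Cre driver, age and sex of the mice are not given in the sources used here.

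Interleukin 1 alpha and beta are alarm cytokines of innate immune cells that act on 1 shared receptor, and interleukin 18 acts on its own receptor of T and NK cells. IL-1 beta and IL-18 are made as inactive precursors and are cut by caspase-1, which is switched on in an inflammasome, a protein complex built by a sensor such as NLRP3 after a priming signal has raised the RNA of its parts. Microglia, the resident macrophages of the brain, and macrophages that derive from blood monocytes are both known to make IL-1 in injured or inflamed brain tissue. RNA levels, the measurement here, do not show cleavage or secretion.

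In GRCm38 (mm10) coordinates, 3 members lie on chromosome 2: Il1a (ENSMUSG00000027399) at chr2:129299610-129309972 on the minus strand, Il1b (ENSMUSG00000027398) at chr2:129364570-129371139 on the minus strand, and Il1rn (ENSMUSG00000026981) at chr2:24336853-24351494 on the plus strand. Chromosome 9 holds the neighbours Casp1 (ENSMUSG00000025888, chr9:5298517-5307265) and Casp4 (ENSMUSG00000033538, chr9:5308828-5336783), both on the plus strand, and Il18 (ENSMUSG00000039217, chr9:50554827-50581840, plus strand). Il18bp (ENSMUSG00000070427) lies at chr7:102014885-102018690 on the minus strand and Nlrp3 (ENSMUSG00000032691) at chr11:59541568-59566956 on the plus strand. All are annotated as protein coding in GENCODE vM21.

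The 250 bases before the RefSeq start (GRCm38.p6) are printed for 4 members and for Casp1, the neighbour of Casp4, whose differences were smaller. The 4 are those called higher in Rbpj-deleted tumours than in healthy brain in both large macrophage classes, in the tests below. The windows are chr2:129371140-129371389 (minus strand) for Il1b, chr2:24336610-24336859 (plus) for Il1rn, chr7:102018233-102018482 (minus) for Il18bp, chr9:5308599-5308848 (plus) for Casp4 and chr9:5298267-5298516 (plus) for Casp1. Capitals mark matches to the NF-kB consensus, the motif of the transcription factor that primes this family.
Il1b: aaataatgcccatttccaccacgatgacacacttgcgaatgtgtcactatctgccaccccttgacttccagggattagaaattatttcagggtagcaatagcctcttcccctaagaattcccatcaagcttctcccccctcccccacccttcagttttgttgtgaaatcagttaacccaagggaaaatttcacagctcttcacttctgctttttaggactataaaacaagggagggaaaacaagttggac
Il1rn: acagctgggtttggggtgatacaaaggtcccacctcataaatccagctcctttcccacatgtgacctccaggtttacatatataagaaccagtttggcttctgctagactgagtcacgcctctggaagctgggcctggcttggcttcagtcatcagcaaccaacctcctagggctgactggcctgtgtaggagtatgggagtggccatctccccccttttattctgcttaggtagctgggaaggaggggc
Il18bp: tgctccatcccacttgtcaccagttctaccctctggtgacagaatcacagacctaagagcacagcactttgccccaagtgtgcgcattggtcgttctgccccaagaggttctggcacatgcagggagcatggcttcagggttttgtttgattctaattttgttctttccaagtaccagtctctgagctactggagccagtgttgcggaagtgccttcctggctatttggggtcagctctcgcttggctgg
Casp4: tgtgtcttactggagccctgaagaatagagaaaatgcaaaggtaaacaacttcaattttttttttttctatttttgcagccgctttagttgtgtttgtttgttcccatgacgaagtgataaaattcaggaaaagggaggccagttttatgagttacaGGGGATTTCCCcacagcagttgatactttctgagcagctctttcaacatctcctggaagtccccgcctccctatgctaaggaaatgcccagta
Casp1: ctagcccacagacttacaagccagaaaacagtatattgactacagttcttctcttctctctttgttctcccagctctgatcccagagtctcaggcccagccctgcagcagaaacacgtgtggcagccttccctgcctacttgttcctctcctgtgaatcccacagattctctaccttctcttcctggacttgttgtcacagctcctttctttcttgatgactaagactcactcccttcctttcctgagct
The Casp4 window held 2 overlapping NF-kB matches, at positions -93 and -92 from the start, which together cover the capitals; a second RefSeq start of Casp4 held the same bases. The first of the 2 Nlrp3 windows held 1 match (gggaaccccc, position -186, minus strand). No NF-kB match, no GAS motif (TTCNNNGAA) and no IRF-type repeat (GAAA, any 2 bases, GAAA) was found on either strand in the windows of Il1a, Il1b, Il18, Il1rn (3 windows), Il18bp or Casp1. Among 32851 RefSeq windows of this length, 3.9% held the NF-kB motif, 7.02% the GAS motif and 2.98% the IRF-type repeat. A match is a description of letters in this window. The printed Il1rn window is the first of its 3 by position, and the Il18bp window lies inside the GENCODE gene body. For Il18, Il1rn and Il18bp no RefSeq start matched the start of a GENCODE transcript, so other starts of these genes were not searched.

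The table held 17362 barcodes, and 14482 cells in 27 clusters were kept after filtering; clusters were named from marker genes and carry the ending "-like" because the names rest on RNA alone. Library totals were 32731006 to 49252701 counts (unique molecular identifiers, UMIs) for Rbpj-deleted tumours, 17978360 to 18217310 for control tumours and 17430763 to 55229031 for healthy brain. Microglia-like cells numbered 1107 and 509 in Rbpj-deleted replicates 1 and 2, 235 and 206 in the control replicates, and 4631 and 1640 in the healthy replicates. Monocyte/macrophage-like cells numbered 709 and 773, 202 and 79, and 920 and 291 in the same order. Levels are given as CPM, a gene's UMIs per 1000000 UMIs of the cells of that class in 1 library. Fold changes were also scaled by TMM factors, which adjust for library composition, and CPM were not. In monocyte/macrophage-like cells these factors were 1.15 in both healthy libraries and 0.897 to 0.975 in tumours. Fold changes over healthy brain in that class therefore lie above the ratios of the printed CPM. Tests were edgeR quasi-likelihood fits on summed UMIs over all 6 libraries, and a gene was called at an adjusted p under 0.05 over all genes tested. With 2 libraries per group the p-values rest on how far libraries of a group lie apart, a spread that may be only technical, and an exact permutation test of 2 against 2 could not go below 0.333. The healthy libraries serve both tumour contrasts, so those contrasts are not independent.

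Several library features move with the groups. Healthy replicate 1 sits with the control tumour libraries and healthy replicate 2 with the Rbpj-deleted ones for genes over 4-fold apart on that split in microglia-like cells (19 of 11174 higher on the control side, 22 on the Rbpj-deleted side). With this split as a term in the 6-library fit, 18 genes and 0 members were called between the tumour groups in microglia-like cells. The Y-linked gene Ddx3y averaged 21.8 CPM in Rbpj-deleted tumours, 89.6 CPM in control tumours and 69.9 CPM in healthy brain in microglia-like cells, and the part of the sex of the mice in any result below was not tested. The 12 microglia markers were all detected in microglia-like cells of each library, with a summed level of 17125 and 20065 CPM in Rbpj-deleted tumours, 19602 and 21245 CPM in control tumours, and 31904 and 32031 CPM in healthy brain. Markers of monocytes summed to 142 and 169 CPM, 124 and 115 CPM, and 16.2 and 21.7 CPM in the same cells. The 10 neutrophil markers summed to 165 to 214 CPM, 193 to 250 CPM and 208 to 232 CPM in microglia-like cells. Most of this sum was Csf3r, at 201 CPM with all libraries pooled. S100a9 stood at 10.1 and S100a8 at 6.09 CPM in the pooled cells. The other markers ran from 0.068 CPM (Ly6g, at 0 in all 4 tumour libraries) to 0.986 CPM (Retnlg). The part of these marker differences in the results was not tested.

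Against healthy brain, 5 of 8 members rose in microglia-like cells of Rbpj-deleted tumours (Il1rn, Il18bp, Casp1, Casp4 and Il1b) and 4 of 8 in monocyte/macrophage-like cells (Il1rn, Il1b, Il18bp and Casp4); none fell. Of all genes tested, 8.26% were called higher and 3.69% lower in microglia-like cells, and 3.8% and 1.99% in monocyte/macrophage-like cells. In control tumours against healthy brain, 4 members rose in each class, Il18bp, Il1rn, Casp1 and Casp4 in microglia-like cells and Il18bp, Casp4, Il1b and Il1rn in monocyte/macrophage-like cells, against backgrounds of 3.15% called higher and 0.412% lower in microglia-like cells and 4.2% and 1.76% in monocyte/macrophage-like cells. The members' median log2 fold change over healthy brain was 2.05 in microglia-like and 2.07 in monocyte/macrophage-like cells of Rbpj-deleted tumours (all genes -0.04 and -0.01), and 2.43 and 2.31 in control tumours (all genes -0.02 in both). Il18 was the member with the smallest differences in both contrasts and classes. In microglia-like cells 56.6% of all genes tested did not overlap between Rbpj-deleted and healthy libraries, and 49.5% between control and healthy ones (TMM-scaled CPM). The shares were 54.0% and 55.1% in monocyte/macrophage-like cells. A lack of overlap with healthy brain, given for several members below, is therefore common to many genes.

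**Figure D1:**
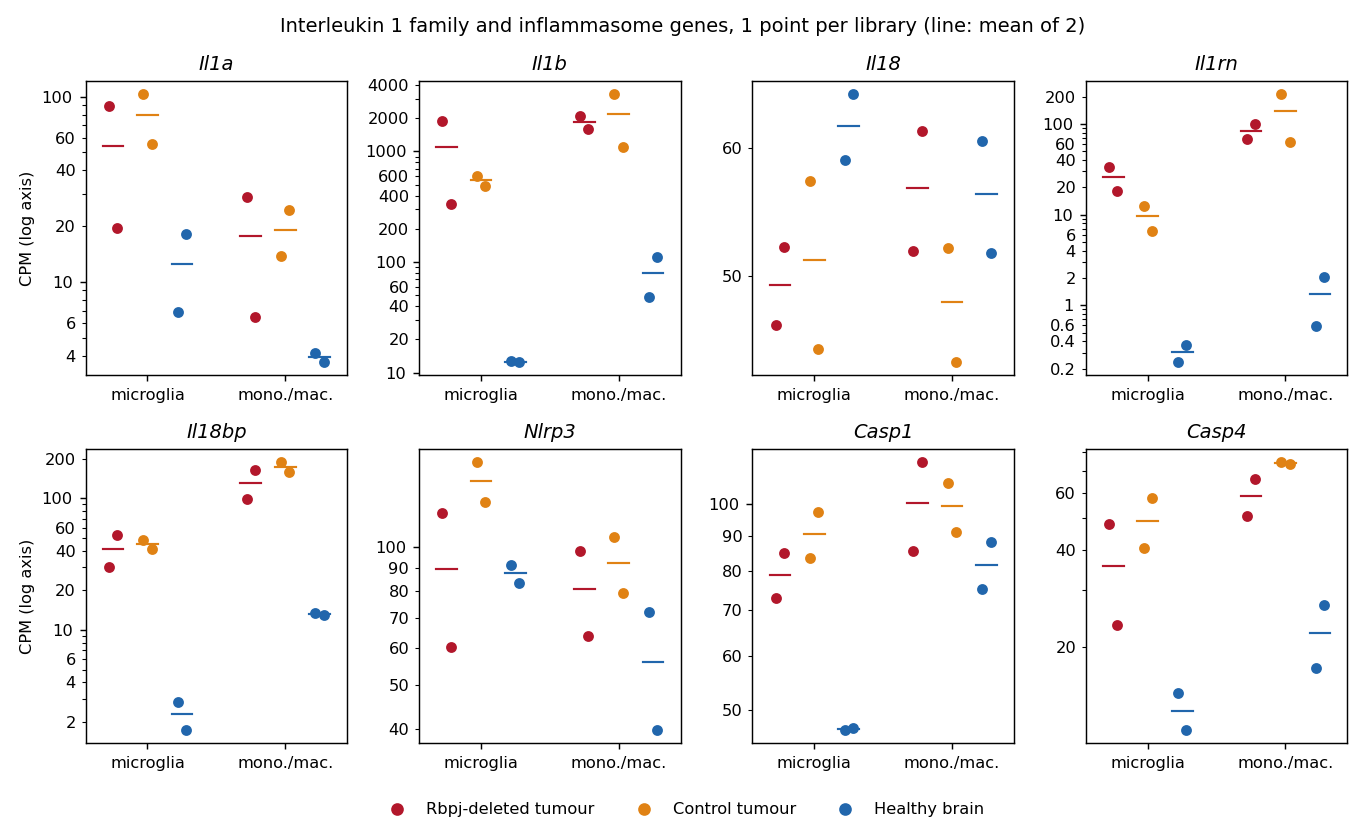
Level of each member in CPM (log axis) in microglia-like and monocyte/macrophage-like cells, 1 point per library and a line at the mean of 2, with Rbpj-deleted tumours on the left of each trio, then control tumours, then healthy brain. Il1a, Il1b, Il1rn, Il18bp and Casp4 lie apart between tumour and healthy libraries in both classes, Il1a only narrowly in microglia-like cells. Il18 spans only 44.2 to 64.8 CPM. Per contrast and class, 49.5% to 56.6% of all genes tested likewise did not overlap.

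Il1b encodes the IL-1 beta precursor. In microglia-like cells it stood at 1878 and 335 CPM in Rbpj-deleted replicates 1 and 2, 604 and 492 CPM in the control replicates, and 12.7 and 12.5 CPM in the healthy replicates. All tumour libraries were far above both healthy ones, but the 2 Rbpj-deleted libraries lay on either side of the control libraries. Over healthy brain the log2 fold change was 6.65 ± 1.14 (SE) in Rbpj-deleted tumours (edgeR adjusted p = 0.0477) and 5.54 ± 1.09 in control tumours (adjusted p = 0.135, not called). The control difference was called by DESeq2, with mixed barcodes kept (adjusted p = 0.0411) and without either Rbpj-deleted library. The Rbpj-deleted call ended in 7 of the alternative settings, among them with the replicate block (adjusted p = 0.054), without either control library, without either healthy library (adjusted p = 0.245 without healthy replicate 2) and with the library split as a term. Without Rbpj-deleted replicate 1 its fold change was 4.89, and without the Csf1-led cluster described below Il1b rose in both tumour groups, by log2 3.72 in Rbpj-deleted and 3.65 in control tumours.

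In monocyte/macrophage-like cells Il1b stood at 2086 and 1595 CPM in Rbpj-deleted tumours, 3281 and 1092 CPM in control tumours, and 48.4 and 111 CPM in healthy brain. The tumour libraries again did not overlap the healthy ones, and the control libraries bracketed the Rbpj-deleted ones. Il1b rose by log2 4.83 ± 0.71 (adjusted p = 0.0121) in Rbpj-deleted and 5.13 ± 0.72 (adjusted p = 0.0109) in control tumours over healthy brain. Without healthy replicate 1 these adjusted p-values were 0.0581 and 0.0526, and the library split as a term also ended the Rbpj-deleted call. Different clusters made up the class: cells led by Saa3 and Ly6i or by Ccl8 and Gbp2b dominated it in tumours, and Lyve1-led border macrophages were 89.6% and 78.7% of it in healthy brain.

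Il1a encodes IL-1 alpha, which needs no inflammasome for its activity. Its level in microglia-like cells was 89.3 and 19.7 CPM in Rbpj-deleted tumours, 103 and 55.9 CPM in control tumours, and 6.85 and 18.2 CPM in healthy brain. The lower Rbpj-deleted library was close to the higher healthy one. Its log2 fold changes over healthy brain, 2.4 ± 1.03 in Rbpj-deleted tumours (adjusted p = 0.260) and 2.82 in control tumours (adjusted p = 0.367), were not called. In monocyte/macrophage-like cells it stood at 28.8 and 6.43 CPM, 13.8 and 24.4 CPM, and 4.14 and 3.69 CPM, with log2 2.42 ± 0.70 (adjusted p = 0.105) and 2.53 ± 0.73 (adjusted p = 0.103); DESeq2 called both. Il1a shares 10.0% of its 31-base stretches with the antisense gene Gm14023, and whether the counting used strand is not stated, so its level is uncertain to that extent.

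Il18 encodes the IL-18 precursor, which unlike that of IL-1 beta is known to be present in resting cells. Its microglia-like level was 46.6 and 52.1 CPM in Rbpj-deleted tumours, 57.3 and 45.1 CPM in control tumours, and 59.0 and 64.8 CPM in healthy brain. The values were 51.8 and 61.5 CPM, 52.0 and 44.2 CPM, and 60.6 and 51.7 CPM in monocyte/macrophage-like cells. Its log2 fold changes over healthy brain were -0.15 ± 0.19 and -0.16 in microglia-like cells and 0.31 ± 0.24 and 0.10 ± 0.25 in monocyte/macrophage-like cells (Rbpj-deleted, then control tumours; adjusted p from 0.516 to 0.855), so a difference was not detectable; the last of these changed sign with library size alone as the scaling (-0.22). Il18 overlaps Bco2 and Tex12 on the opposite strand.

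Il1rn encodes the IL-1 receptor antagonist, which binds the IL-1 receptor without signalling. In microglia-like cells it stood at 33.1 and 18.2 CPM in Rbpj-deleted tumours, 12.5 and 6.57 CPM in control tumours, and 0.236 and 0.367 CPM in healthy brain, where only 7 and 4 UMIs were seen. The 3 groups did not overlap. Over healthy brain it rose by log2 6.67 ± 0.49 (adjusted p = 5.7e-06) in Rbpj-deleted and 5.15 ± 0.53 (adjusted p = 0.000133) in control tumours; the control call ended without the Csf1-led cluster (5.02, adjusted p = 0.0861).

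Il1rn in monocyte/macrophage-like cells stood at 67.6 and 99.6 CPM in Rbpj-deleted tumours, 211 and 62.7 CPM in control tumours, and 0.592 and 2.05 CPM in healthy brain (5 UMIs in each). The tumour libraries lay far above the healthy ones, with the control libraries on either side of the Rbpj-deleted ones. It rose by log2 6.67 ± 0.94 (adjusted p = 0.0186) in Rbpj-deleted and 7.43 ± 0.95 (adjusted p = 0.0144) in control tumours. Both calls ended without healthy replicate 1, and the Rbpj-deleted one also without either Rbpj-deleted library (adjusted p up to 0.105).

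Il18bp encodes the soluble protein that binds IL-18 and keeps it from its receptor. In microglia-like cells it stood at 30.1 and 53 CPM in Rbpj-deleted tumours, 48.7 and 41.3 CPM in control tumours, and 2.87 and 1.75 CPM in healthy brain. The monocyte/macrophage-like values were 98.6 and 165 CPM, 188 and 158 CPM, and 13.4 and 13.1 CPM. The tumour groups overlapped each other and not healthy brain in both classes. Il18bp rose by log2 4.24 ± 0.33 (adjusted p = 1.5e-05) and 4.31 ± 0.34 (adjusted p = 2.9e-05) in microglia-like cells of Rbpj-deleted and control tumours, and by 3.62 ± 0.35 (adjusted p = 0.00193) and 4.02 ± 0.36 (adjusted p = 0.00135) in monocyte/macrophage-like cells. These calls held in all alternatives run, except in microglia-like cells of control tumours without the Csf1-led cluster (2.87, adjusted p = 0.173). The gene overlaps Numa1 on the opposite strand and shares 1.60% of its 31-base stretches with it.

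Nlrp3 encodes the sensor of the NLRP3 inflammasome. In microglia-like cells it stood at 119 and 60.4 CPM in Rbpj-deleted tumours, 153 and 125 CPM in control tumours, and 91.5 and 83.7 CPM in healthy brain. The Rbpj-deleted libraries lay on either side of the healthy ones and below the control ones. Over healthy brain the log2 fold changes were 0.23 ± 0.29 (adjusted p = 0.660) and 0.77 ± 0.29 (adjusted p = 0.242). Its level in monocyte/macrophage-like cells was 98.0 and 63.9 CPM, 105 and 79.2 CPM, and 72.1 and 39.8 CPM, with log2 0.80 ± 0.34 (adjusted p = 0.217) and 1.03 ± 0.34 (adjusted p = 0.126). None of these was called in the fit described above. With no filter on low counts, Nlrp3 was called in control tumours over healthy brain in both classes. In microglia-like cells that difference was also called without either Rbpj-deleted library.

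Casp1 encodes caspase-1, which cuts the IL-1 beta and IL-18 precursors. Microglia-like cells held it at 73.0 and 84.9 CPM in Rbpj-deleted tumours, 83.4 and 97.6 CPM in control tumours, and 46.7 and 47.0 CPM in healthy brain. It rose by log2 0.93 ± 0.19 (adjusted p = 0.00752) in Rbpj-deleted and 1.05 ± 0.19 (adjusted p = 0.00846) in control tumours. The groups overlapped in monocyte/macrophage-like cells, at 85.6 and 115 CPM, 108 and 91.1 CPM, and 75.1 and 88.2 CPM, and both log2 fold changes were 0.61 (± 0.27, adjusted p = 0.233 and 0.224).

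Casp4 encodes the mouse caspase also called caspase-11, which is known to bind bacterial lipopolysaccharide inside the cell and to open the pore protein gasdermin D. In microglia-like cells it stood at 48.2 and 23.4 CPM in Rbpj-deleted tumours, 40.5 and 57.7 CPM in control tumours, and 14.4 and 11.1 CPM in healthy brain. The monocyte/macrophage-like values were 51.0 and 66.1 CPM, 74.5 and 73.9 CPM, and 17.3 and 27.1 CPM. Tumour and healthy libraries did not overlap in either class, as for 49.5% to 56.6% of all genes per contrast and class. It rose by log2 1.69 ± 0.35 (adjusted p = 0.0161) and 2.03 ± 0.36 (adjusted p = 0.0171) in microglia-like cells of Rbpj-deleted and control tumours, and by 1.73 ± 0.30 (adjusted p = 0.0161) and 2.09 ± 0.30 (adjusted p = 0.00941) in monocyte/macrophage-like cells. The microglia-like calls ended without healthy replicate 2 (adjusted p = 0.0516) and without control replicate 2 (0.160), for Rbpj-deleted and control tumours in turn, and that of control tumours also without the Csf1-led cluster and with the split term. The Casp1 call in control tumours ended without control replicate 2 and without the Csf1-led cluster (0.78, adjusted p = 0.304), while that in Rbpj-deleted tumours held in all alternatives run. The Casp4 calls in monocyte/macrophage-like cells ended without healthy replicate 1, and the Rbpj-deleted one also without Rbpj-deleted replicate 2 and with the split term (0.110).

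**Figure D2:**
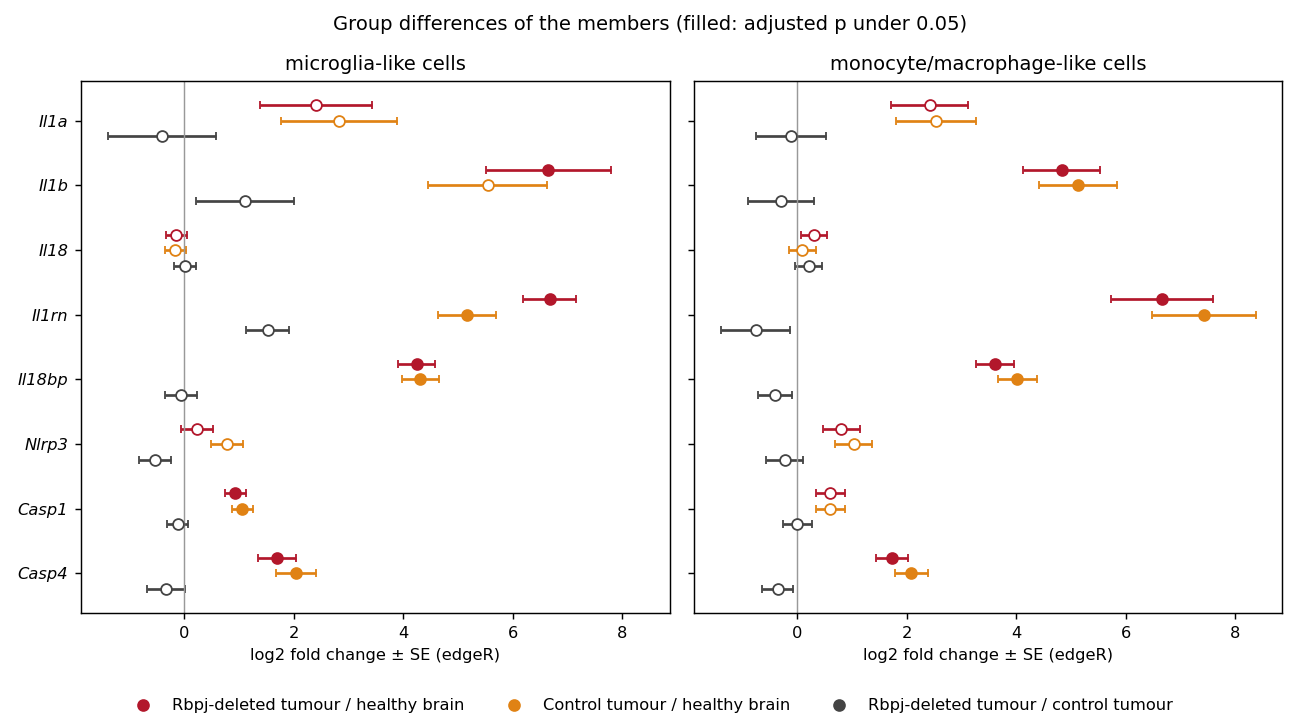
Log2 fold changes of the members with their standard errors from edgeR, in microglia-like cells (left) and monocyte/macrophage-like cells (right), for Rbpj-deleted tumour over healthy brain, control tumour over healthy brain and Rbpj-deleted over control tumour; filled points have an adjusted p under 0.05. Il1rn, Il1b, Il18bp, Casp4 and Il1a lie furthest to the right in both tumour contrasts. Il1a has no filled point, nor has Il1b in control tumours over healthy brain in microglia-like cells. No filled point belongs to Rbpj-deleted over control tumour.

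Between Rbpj-deleted and control tumours, no member was called by edgeR or DESeq2 in microglia-like cells (0 of 8, against 0.0447% of all genes tested, 5 in edgeR and 163 in DESeq2) or in monocyte/macrophage-like cells (0 of 8, against 0.0% of all genes, 0 in edgeR and 21 in DESeq2). At an unadjusted p under 0.05 there was 1 member in microglia-like cells, Il1rn, and 0 in monocyte/macrophage-like cells. Il1rn differed by log2 1.52 ± 0.39 in microglia-like cells (adjusted p = 0.160) and was higher in both Rbpj-deleted libraries than in both control ones; 47.1% of all genes tested likewise had no overlap between the groups. It was called when no filter on low counts was applied. The Il1b difference, 1.10 ± 0.90 (adjusted p = 0.671), turned to -0.65 without Rbpj-deleted replicate 1 and was 1.88, a call (adjusted p = 6.16e-04), without Rbpj-deleted replicate 2. Nlrp3 stood at -0.54 ± 0.29 (adjusted p = 0.46) and at -1.15, a call (adjusted p = 0.0169), without Rbpj-deleted replicate 1. The differences in monocyte/macrophage-like cells ran from -0.76 ± 0.63 for Il1rn to 0.21 ± 0.25 for Il18 (adjusted p = 0.997 for both), and without control replicate 1 those of Il1rn and Il1b were 0.48 and 0.80. In T-like cells, of which the tumour libraries held 50 to 194, only Casp1, Casp4 and Il1b had enough counts to test and 0 were called in the 4 tumour libraries, against 0.24% of 7093 genes.

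Much of the microglial IL-1 RNA came from 1 cluster of 980 microglia-like cells led by Egr3, Csf1, Il1a and Tnf, in which the immediate early gene Egr3, the macrophage growth factor Csf1 and the cytokine Tnf are high. Its name is weakly based: no microglia marker was among its 10 leading genes, its mean marker level was 0.36 of the highest cluster's against a minimum of 0.35, and the matching cluster of 950 cells stayed unnamed when barcodes were called mixed at the higher level. It held 66.8% and 7.86% of microglia-like cells in Rbpj-deleted replicates 1 and 2, 43.0% and 47.6% in the control replicates, and 0 and 0.061% in the healthy ones. Because Il1a is one of its leading genes, its Il1a level or share against other clusters is no finding. The Csf1-led cells carried 23.3% of all Il1b UMIs and 43.2% of all Il1a UMIs in the kept cells. These shares pool all libraries and rest mostly on Rbpj-deleted replicate 1, with 740 of the 980 cells. It gave 7433822 of the cluster's UMIs, against 354200 to 1105066 in each other tumour library. Within the cluster Il1b stood at 2487 and 2182 CPM in Rbpj-deleted tumours and at 1127 and 931 CPM in control tumours, so that the 2 Rbpj-deleted libraries, far apart over the whole class, lay close to each other and above both control libraries. Over the whole class, 47.1% of all genes tested had no overlap between these groups. That share was not computed within the cluster.

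Within the same cluster Il1rn stood at 41.3 and 48.0 CPM in Rbpj-deleted tumours and at 7.24 and 12.8 CPM in control tumours, on 17 UMIs in the thinner Rbpj-deleted library and on 8 and 13 in the control ones. In a fit of the 4 tumour libraries that was chosen after seeing the data, Il1b was higher in Rbpj-deleted than in control tumours by log2 1.26 ± 0.20 (edgeR adjusted p = 0.00443) and Il1rn by 2.17 ± 0.36 (adjusted p = 0.00649), 2 of 8 members against 1.34% of 7459 genes. Both were called by DESeq2 too, and with the members left out of the genes used for clustering. Il1b lost its call without either control library (adjusted p up to 0.165), and Il1rn without control replicate 1 or Rbpj-deleted replicate 1 (up to 0.178). In this edgeR fit 3 of 8 members, the 2 called ones among them, had an unadjusted p under 0.05. The other members overlapped or differed less, and none of them was called. Nlrp3 and Casp1 were lower in both Rbpj-deleted libraries than in both control ones. They stood at 136 and 147 CPM against 186 and 157 CPM, and at 73.2 and 70.6 CPM against 117 and 99.4 CPM. Casp4 overlapped, at 51.8 and 39.5 CPM against 48.9 and 77.8 CPM. Rbpj-deleted replicate 2 gave 40 cells of this cluster against 740 in replicate 1, and in these 4 tumour libraries the contrast and the library split cannot be told apart.

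**Figure D3:**
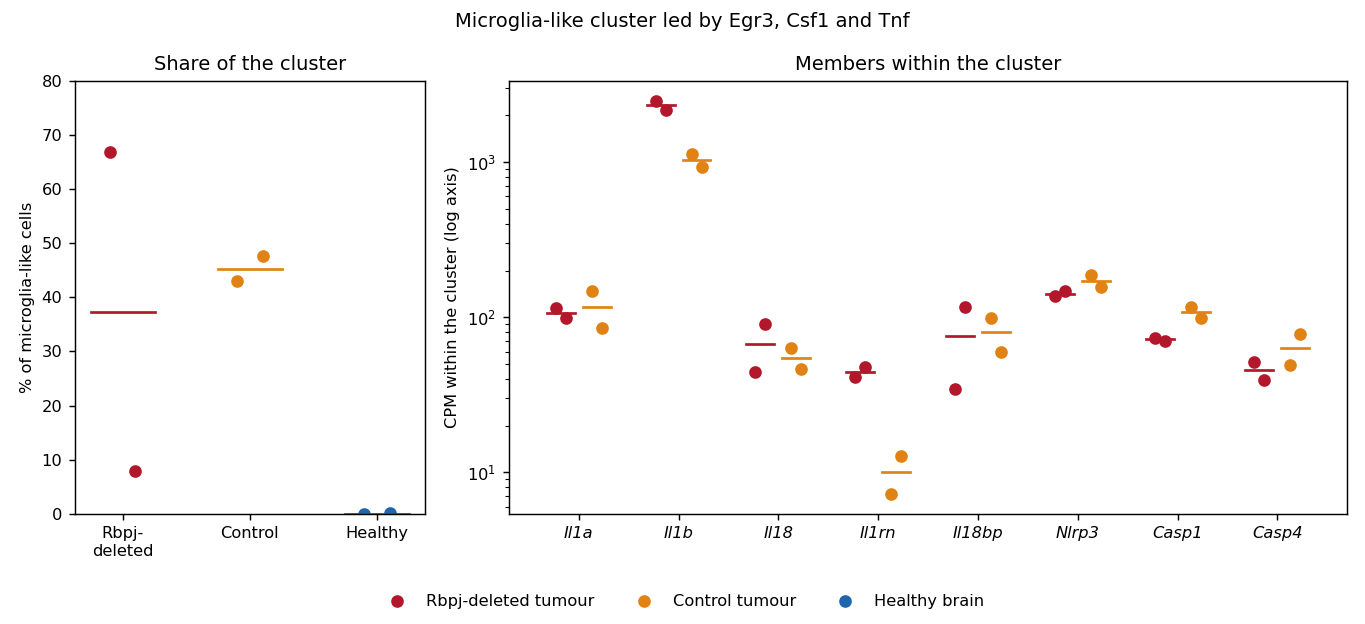
Left, the share of microglia-like cells in the Csf1-led cluster per library; right, the CPM of each member within that cluster (log axis) in Rbpj-deleted and control tumours, with 1 point per library and a line at the mean. Il1b and Il1rn are higher in both Rbpj-deleted libraries than in both control ones, although the share of the cluster was 66.8% in one Rbpj-deleted library and 7.86% in the other. In the whole microglia-like class 47.1% of all genes tested likewise did not overlap between these groups, a share not computed within the cluster.

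Outside that cluster, microglia-like cells of tumours also carried Il1b. Cells led by Spp1 and Cadm1 held 348 and 87.9 CPM in Rbpj-deleted tumours, 655 CPM in control replicate 1, and 31.5 and 27.4 CPM in healthy brain. Cells led by Gpr34 and Gpr165, the bulk of healthy replicate 2, held 44.9 and 0 CPM in Rbpj-deleted tumours, 19.6 and 21.4 CPM in control tumours, and 2.46 and 6.92 CPM in healthy brain. Cells led by Spint1 and Gcnt1, which made up 20.3% and 48.3% of microglia-like cells in Rbpj-deleted tumours and 24.3% in control replicate 2, held 106 and 205 CPM in Rbpj-deleted tumours, 82.9 and 34.2 CPM in control tumours, and 275 CPM in the 21 such cells of healthy replicate 2.

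Among monocyte/macrophage-like cells the Saa3- and Ly6i-led cluster, named from markers of monocyte-derived macrophages, held 32.4% of all Il1b, 51.3% of all Il1rn, 30.1% of all Il18bp and 22% of all Casp4 UMIs. Its Il1b level was 3459 and 2007 CPM in Rbpj-deleted tumours, 4297 and 1898 CPM in control tumours, and 474 CPM in healthy replicate 2, the healthy library with over 20 such cells. Its Il1rn level was 147 and 128 CPM, 285 and 163 CPM, and 4.12 CPM in the same libraries, so the 23 healthy cells of this cluster had Il1b but hardly any Il1rn. The Ccl8- and Gbp2b-led cluster held 20.1% of Il1b, 16.0% of Il1rn and 34.1% of Il18bp UMIs, with Il18bp at 95.5 and 208 CPM in Rbpj-deleted and 383 and 195 CPM in control tumours. Lyve1-led border macrophages held Il1b at 988 and 154 CPM in Rbpj-deleted tumours, 409 CPM in control replicate 1 and 40.4 and 70.5 CPM in healthy brain.

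**Figure D4:**
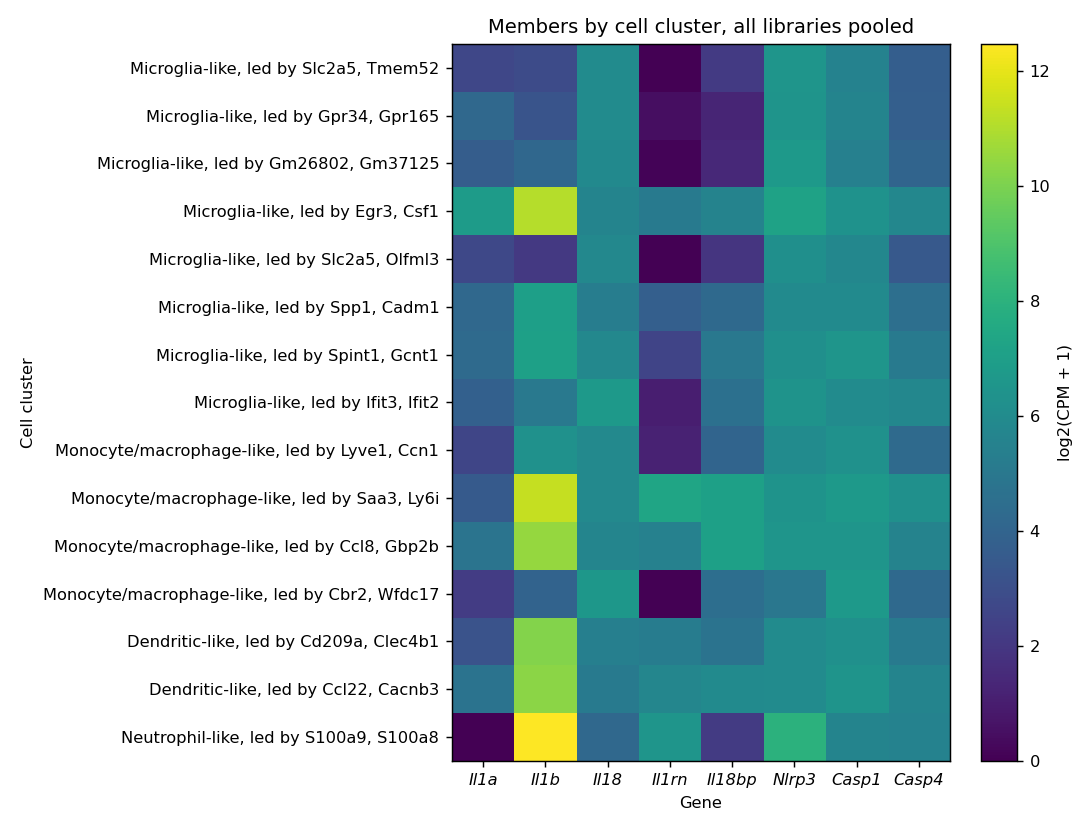
Pooled level of each member in the myeloid clusters as log2(CPM + 1), all libraries together; rows are clusters with their 2 leading genes, and lighter cells are higher. Il1b is highest in the 50 neutrophil-like cells and in the Saa3- and Ly6i-led macrophages, and Il18 is nearly flat over the rows. Il1a is highest in the Csf1-led microglia, of which it is a leading gene, so that is no finding. Libraries fill the clusters unequally (the Csf1-led cells are nearly all from tumours, the Lyve1-led cells mostly from healthy brain), so the order of rows mixes cluster and group.

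The 50 neutrophil-like cells, of which healthy brain gave 10 and 19, had a pooled Il1b level of 5704 CPM and a pooled Nlrp3 level of 255 CPM, but held only 1.82% of all Il1b UMIs. Markers of mast cells and basophils were also highest in this cluster, with Hdc at 694, Mcpt8 at 648 and Cpa3 at 558 CPM, so its levels may not be those of neutrophils alone. Over classes with at least 20 cells in a library, Il1b averaged 1369 CPM in monocyte/macrophage-like, 833 in dendritic-like, 556 in microglia-like, 420 in plasmacytoid dendritic-like, 149 in B-like, 42.5 in NK-like and 16.8 in T-like cells, and each class overlapped the next over libraries. These means cover 6 libraries for both macrophage classes, 5 for dendritic-like and T-like, 4 for B-like, 3 for NK-like and 2 for plasmacytoid dendritic-like cells, and for NK-like and plasmacytoid dendritic-like cells tumour libraries only, so the order mixes class and group. Il1a was led by microglia-like cells (48.8 CPM, range 6.85 to 103) over monocyte/macrophage-like cells (13.6 CPM) and was at 0 in NK-like cells. Il1rn and Il18bp were led by monocyte/macrophage-like cells (74.0 and 106 CPM), Il1rn with 0 UMIs in T-like and NK-like cells.

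Nlrp3 averaged 106 CPM in microglia-like, 76.4 in monocyte/macrophage-like and 49.0 in dendritic-like cells, against 16.2 in T-like and 1.71 in B-like cells, where the healthy replicate 1 T-like cells stood apart at 72.2 CPM. Il18 averaged 105 CPM in the non-immune brain cells, 54.1 in microglia-like, 53.6 in monocyte/macrophage-like and 3.52 CPM in NK-like cells. Casp1 and Casp4 were the members with the flattest profile over classes, from 93.8 (monocyte/macrophage-like) to 33.7 CPM (B-like) for Casp1 and from 51.6 (monocyte/macrophage-like) to 13 CPM (B-like) for Casp4 among the immune classes.

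**Figure D5:**
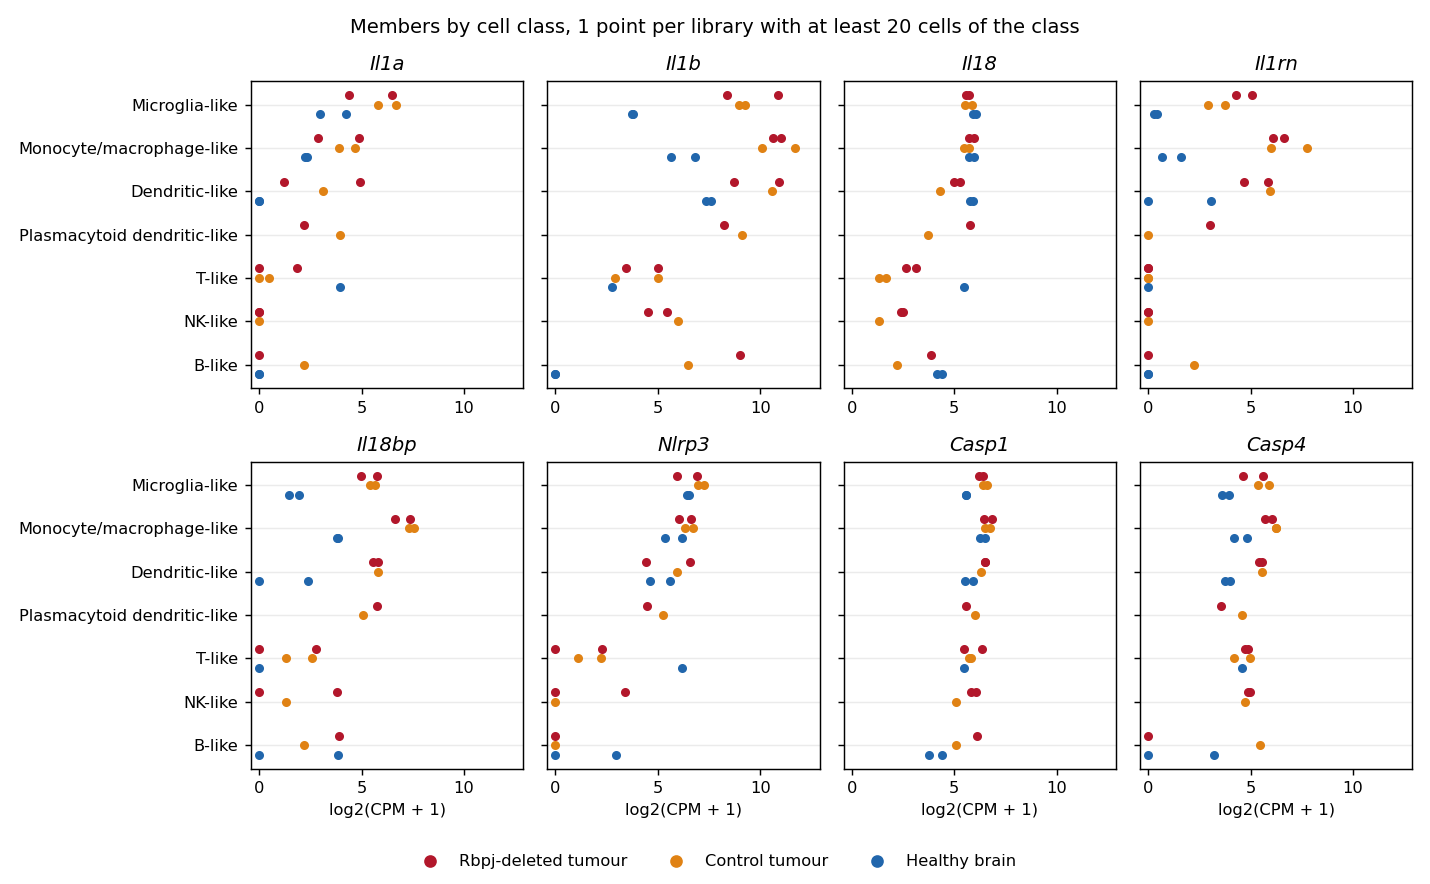
Level of each member as log2(CPM + 1) in 7 immune cell classes, 1 point per library with at least 20 cells of the class, with Rbpj-deleted tumours above control tumours and healthy brain within a row. Il1b, Il1rn and Il18bp separate tumour from healthy libraries in the myeloid rows, while Casp1 lies between 12.6 and 115 CPM in every row.

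The share of cells with a UMI was compared after each cell had been thinned to 2000 UMIs. An Il1b UMI was then seen in 46.2% and 15.3% of microglia-like cells of Rbpj-deleted tumours, 22% and 13.5% of those of control tumours, and 1.08% and 0.872% of those of healthy brain. In monocyte/macrophage-like cells the shares were 67.4% and 46.8%, 68.6% and 39.4%, and 3.70% and 8.06%. T-like cells, which should lack the gene, gave 6.12% and 2.47%, 2.09% and 0.952%, and 0 of 31 cells in healthy replicate 1 (exact 95% binomial upper bound 11.2%) at median depths of 3889 to 9967 UMIs against 5254 to 9412 in microglia-like cells. The healthy microglial shares were no higher than those of T-like cells of most tumour libraries, which are other libraries than the healthy ones. Single healthy microglia-like cells held up to 53 and 19 Il1b UMIs in replicates 1 and 2. The part of free RNA in any of these shares was not tested. Unthinned, the group means were 41.9%, 26.0% and 2.56% of microglia-like cells. An Il1rn UMI was seen in 9.90% and 12.7% of monocyte/macrophage-like cells of Rbpj-deleted tumours, 23.8% and 5.63% of those of control tumours, and 0.119% and 0% of those of healthy brain (the second with an upper bound of 1.34%).

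Il1b UMIs were spread unevenly over the cells of the microglia-like class, counted here without thinning. The 10% of microglia-like cells with the most held 63.7% and 91.3% of the class's Il1b UMIs in Rbpj-deleted tumours and 82.1% and 93.2% in control tumours. Up to 314 UMIs were in 1 cell. The top 10% by Nlrp3 held 46.9% and 56.6%, and 39.6% and 44.6%, of Nlrp3 UMIs. In monocyte/macrophage-like cells the Il1b shares were 46.4% and 63.2% in Rbpj-deleted and 38.4% and 70.8% in control tumours. The Nlrp3 shares there were 47.1% and 56.3%, and 45.7% and 55%, so neither gene was the more concentrated throughout. After thinning, 69.9% of the 146 Il1a-positive microglia-like cells of Rbpj-deleted replicate 1 also had an Il1b UMI, against 42.0% of the Il1a-negative ones; in control replicates 1 and 2 these shares were 32.5% against 19.7% and 36.4% against 10.1%. In Rbpj-deleted replicate 2, where few cells belonged to the Csf1-led cluster, they were 14.3% against 15.4%. Among monocyte/macrophage-like cells, those with an Il1b UMI had an Il1rn UMI more often than the others in each tumour library, at 11.6% against 6.33% and 18.2% against 7.77% in Rbpj-deleted tumours and 27.6% against 15.5% and 14.3% against 0% in control tumours. Cells of 1 library are not replicates, and these shares are given without a test.

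The ratio of antagonist to ligand UMIs differed between the 2 cytokine systems. Il18bp UMIs per Il18 UMI were 0.647 and 1.02 in microglia-like cells of Rbpj-deleted tumours, 0.850 and 0.917 in those of control tumours, and 0.0486 and 0.0270 in those of healthy brain. The monocyte/macrophage-like values were 1.90 and 2.68, 3.61 and 3.57, and 0.221 and 0.254, so this ratio was higher in each tumour library than in each healthy one, and lower in both Rbpj-deleted libraries than in both control ones in the second class. Il1rn UMIs per Il1b UMI were 0.0176 and 0.0544, 0.0206 and 0.0134, and 0.0186 and 0.0294 in microglia-like cells, where the groups overlapped, and 0.0324 and 0.0624, 0.0644 and 0.0574, and 0.0122 and 0.0185 in monocyte/macrophage-like cells. Il1a UMIs per Il1b UMI were 0.0476 and 0.0587 in microglia-like cells of Rbpj-deleted tumours, 0.170 and 0.114 in those of control tumours and 0.538 and 1.46 in those of healthy brain.

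The class was tested as a modifier with limma on the per-library difference of log2 CPM between microglia-like and monocyte/macrophage-like cells. No member was called in any contrast, against 0.0% of 10533 genes for Rbpj-deleted over control tumours, 0.199% for Rbpj-deleted tumours over healthy brain and 0.18% for control tumours over healthy brain. Il1rn had an unadjusted p under 0.05 in 2 of them: its Rbpj-deleted over control difference was 2.03 ± 0.62 log2 units more positive in microglia-like cells (adjusted p = 0.518), and its control over healthy difference 2.14 ± 0.62 smaller there, that is -2.14 (adjusted p = 0.188). For Rbpj-deleted tumours over healthy brain the same held for Il18bp, 0.74 ± 0.27 more positive in microglia-like cells (adjusted p = 0.372), and for Nlrp3, at -0.71 ± 0.28 (adjusted p = 0.421).

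Other genes of the pathway were taken from lists chosen by function. Of 24 further inflammasome genes, 17 were tested in microglia-like cells, where 5 rose and 1 fell between Rbpj-deleted tumours and healthy brain, and 3 rose and 0 fell between control tumours and healthy brain; in monocyte/macrophage-like cells 18 were tested, with 5 rising and 1 falling, and 4 rising and 0 falling. Of all genes tested in microglia-like cells, 8.26% were called higher and 3.69% lower in Rbpj-deleted tumours, and 3.15% and 0.412% in control tumours. These shares were 3.8% and 1.99%, and 4.2% and 1.76%, in monocyte/macrophage-like cells. The median log2 fold change of the list was 0.28 and 0.47 in microglia-like and 0.73 and 0.61 in monocyte/macrophage-like cells, near 0 for all genes. Gbp2 and Gbp5, interferon-induced GTPases known to act at intracellular bacteria and on inflammasome assembly, were among the risers in both classes and both tumour groups. Gbp2 stood at 224 and 248 CPM in microglia-like cells of Rbpj-deleted tumours, 566 and 377 CPM in control tumours, and 4.76 and 10.0 CPM in healthy brain, with log2 5.23 ± 0.38 (adjusted p = 3.1e-05) and 6.15 ± 0.39 (2.4e-05). Gbp5 stood at 53.7 and 55.8 CPM, 104 and 111 CPM, and 12.1 and 9.28 CPM, with log2 2.52 ± 0.21 (adjusted p = 1.3e-05) and 3.42 ± 0.22 (3.1e-06).

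The caspase gene Casp12 rose in all 4 of these comparisons, from low levels: 12 and 4.27 CPM in microglia-like cells of Rbpj-deleted tumours, 8.18 and 13.1 CPM in control tumours, and 1.38 and 1.47 CPM in healthy brain (log2 2.77 ± 0.49, adjusted p = 0.00379, and 2.99 ± 0.52, adjusted p = 0.00696). Pycard, which encodes the adaptor ASC that joins the sensor to caspase-1, rose between Rbpj-deleted tumours and healthy brain, at 543 and 641 CPM against 395 and 400 CPM in microglia-like cells (log2 0.75 ± 0.20, adjusted p = 0.0291) and at 474 and 491 CPM against 271 and 226 CPM in monocyte/macrophage-like cells (1.25 ± 0.30, adjusted p = 0.0468). In control tumours it stood at 427 and 365 CPM and at 394 and 316 CPM, not called. Naip2, a sensor of bacterial secretion systems, rose between Rbpj-deleted tumours and healthy brain by log2 0.89 ± 0.20 and 1.2 ± 0.22 in the 2 classes (adjusted p = 0.0135 and 0.0215). Gsdmd, the gene of gasdermin D, rose in monocyte/macrophage-like cells of control tumours (log2 1.5 ± 0.34, adjusted p = 0.0417); in Rbpj-deleted tumours the value was 1.29 ± 0.34 (adjusted p = 0.0641).

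Txnip, whose protein is an inhibitor of thioredoxin and has been described as a partner of NLRP3, was the list gene that fell. It stood at 95.5 and 52.1 CPM in microglia-like cells of Rbpj-deleted tumours, 374 and 260 CPM in control tumours, and 160 and 220 CPM in healthy brain. Against healthy brain it fell by log2 1.16 ± 0.31 in Rbpj-deleted tumours (adjusted p = 0.0412); the Rbpj-deleted over control difference was -2.01 ± 0.32 (adjusted p = 0.0724, not called). Within the Csf1-led cluster the Rbpj-deleted over control difference was called (-1.82 ± 0.27, adjusted p = 0.00285), as was that of Nfkbia, the gene of the NF-kB inhibitor (0.97 ± 0.21, adjusted p = 0.038); the Txnip call ended without control replicate 1 (adjusted p = 0.0897), and that of Nfkbia without either control library or Rbpj-deleted replicate 2 (0.151 to 0.579). Monocyte/macrophage-like cells held Txnip at 78.3 and 36.8 CPM, 102 and 127 CPM, and 237 and 254 CPM, a fall of log2 1.82 ± 0.33 in Rbpj-deleted tumours over healthy brain (adjusted p = 0.0206).

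Of 8 receptor genes of the family, 5 were tested in microglia-like cells and 0 passed in any contrast. In monocyte/macrophage-like cells 6 were tested and Il1r2, the decoy receptor of IL-1, rose at 4.13 and 7.46 CPM in Rbpj-deleted tumours and 21.5 and 4.62 CPM in control tumours, against 0.118 and 0.410 CPM in healthy brain (log2 5.06 ± 1.10, adjusted p = 0.0394, and 6.35 ± 1.08, adjusted p = 0.0197). None of the 12 genes of IL-1 receptor signalling passed in either class and any contrast, with 0 to 4 at an unadjusted p under 0.05. This list holds adaptors, kinases and Nfkbia, which was called within the Csf1-led cluster as given above. Il33, the 1 further ligand with enough counts to be tested, did not pass either. Over healthy brain, 8.26% and 3.15% of all genes were called higher in microglia-like cells of Rbpj-deleted and control tumours. The shares were 3.8% and 4.2% in monocyte/macrophage-like cells. Between Rbpj-deleted and control tumours no gene of any list was called in the 2 classes, against 0.0447% and 0.0% of all genes tested.

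The genes whose level was most like each member's over 33 sums of library and class (8 classes, 6169 candidate genes) are given as Pearson r of log2(CPM + 1), a description over sums that share libraries. They were Clec7a (0.875), Ptgs2 (0.872) and Tnfaip2 (0.867) for Il1b, Gna13 (0.828), Atf3 (0.823) and Lap3 (0.813) for Il1a, and Stard9 (0.921), App (0.903) and Ubtd1 (0.903) for Il18. For the antagonists they were Cxcl9 (0.854), Il12b (0.848) and Slamf8 (0.833) for Il1rn, and Cxcl9 (0.835), Ly6i (0.822) and Prdx5 (0.818) for Il18bp. For the inflammasome genes they were Tnfrsf11a (0.948), C1qb (0.926) and Lrrc3 (0.924) for Nlrp3, Sdf2l1 (0.768), Rab20 (0.763) and Calhm6 (0.762) for Casp1, and Gbp5 (0.895), Prdm1 (0.868) and Gbp8 (0.855) for Casp4.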

How the data were processed

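The authors deposited 1 table of UMI counts per gene and barcode, taken as such because every value is a whole number; kallisto 0.46.0 and bustools 0.39.3 are named with mm10 in the submitters' processing notes, which do not say what each was used for. Barcodes carry their sample's title. The lowest total per barcode was 1000. Under 500 genes or over 10% mitochondrial counts removed 17 barcodes. Barcodes whose sequence had over 10 times the counts in another library (256 barcodes; 119 sequences were found in several libraries) were removed, as were 2607 mixed barcodes with at least 3 counts and 5% of the highest cluster's level for markers of 2 lineages; no other doublet step was used. Cells were clustered on 2000 variable genes, 30 components and 20 neighbours by Leiden at resolution 1 (scanpy 1.11.5) and clusters named from marker lists; 6 of 27 stayed unnamed. Counts were summed per library and class (at least 20 cells), passed through filterByExpr, given TMM factors and fitted with edgeR 4.0.16 (robust quasi-likelihood test) with 3 residual degrees of freedom; limma 3.58.1 tested differences between classes and DESeq2 1.42.0 was an alternative. The members and lists were chosen with earlier results of these data known. Named genes were all members, up to 6 list genes per contrast by smallest p among those called, and the 3 genes most like each member. A fit of the Csf1-led cluster alone was added after seeing the data. The fits were tested on simulated data drawn with the real means and library sizes and with 1 fixed spread for all genes. Of genes changed by log2 1 between the tumour groups, 23.1% were called in microglia-like, 22.9% in monocyte/macrophage-like and 13.8% in T-like cells. For log2 2 these shares were 98.9%, 98.1% and 75.6%. Changes of log2 1 were thus mostly missed, and genes whose libraries lie further apart, such as Il1b, were not simulated. Intervals and floors cover counting error only. Promoter windows come from RefSeq, with starts found for all 8 members, and gene positions from GENCODE vM21.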

Additional observations from a re-analysis of the deposited data

How the results depend on the processing

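Of 1091 values recomputed under other settings, 954 kept their direction and side of the threshold (or stayed within the replicate spread), 89 lost a call, 19 gained one, 10 changed sign and 19 moved. The cause was not tested for any of these, and with 2 libraries per group most lost calls came from leaving out 1 library. Members called between Rbpj-deleted and control tumours in microglia-like cells numbered 1 with no filter on low counts and 0 to 1 with 1 library left out; within the Csf1-led cluster they numbered 0 to 2, 0 without control replicate 1. Between Rbpj-deleted tumours and healthy brain the count with 1 library left out was 3 to 5 in microglia-like and 1 to 4 in monocyte/macrophage-like cells, where the library split as a term gave 2. Between control tumours and healthy brain it was 2 to 6 and 1 to 5, and 1 in microglia-like cells without the Csf1-led cluster. The count fell to 1 in monocyte/macrophage-like cells without healthy replicate 1 in both contrasts.

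Signs turned in differences that were not called with all libraries in. With 1 library left out, Rbpj-deleted over control tumours ranged from -0.65 to 1.88 for Il1b in microglia-like cells (the lowest without Rbpj-deleted replicate 1; the highest, without Rbpj-deleted replicate 2, was a call), and in monocyte/macrophage-like cells from -0.90 to 0.80 for Il1b and -1.39 to 0.48 for Il1rn (the highest without control replicate 1). Rbpj-deleted over healthy brain ranged from -0.38 to 0.63 for Nlrp3 in microglia-like cells (the lowest without Rbpj-deleted replicate 1) and was -0.39 without the Csf1-led cluster. Control over healthy brain for Il18 in monocyte/macrophage-like cells ranged from -0.10 to 0.25 (below 0 without control replicate 1 or healthy replicate 2), and was -0.22 with library size alone, -0.0091 with the split term and -0.0109 with mixed barcodes kept. With no thinning, the share of cells with an Il1b UMI was 26.0% against 17.7% thinned in microglia-like cells of control tumours, 2.56% against 0.974% in healthy brain, and 9.82% against 5.88% in healthy monocyte/macrophage-like cells. With mixed barcodes kept, the control tumour ratio of Il1rn to Il1b was 0.0234 in microglia-like and 0.0523 in monocyte/macrophage-like cells, and that of Il18bp to Il18 was 0.931 and 3.49.

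The replicate numbers are not known to pair libraries. Same-numbered libraries deviated from their group means with correlations of -0.307 to 0.275, over 2 pairs a contrast, too few to exclude a shared batch. With the replicate block, 4 members were called in microglia-like cells for Rbpj-deleted and 4 for control tumours over healthy brain, 4 and 4 in monocyte/macrophage-like cells, and 0 between the tumour groups; it ended the Il1b call of Rbpj-deleted tumours over healthy brain in microglia-like cells (6.33, adjusted p = 0.054). Library size alone in place of TMM put the median log2 fold change of all genes at -0.22 in place of -0.04 (Rbpj-deleted over healthy) in microglia-like cells, where 709 genes were then called higher and 915 lower against 923 and 412, and left 5 members called. In monocyte/macrophage-like cells it put that median at -0.30 for Rbpj-deleted and -0.33 for control tumours over healthy brain, in place of -0.01 and -0.02. Counts over all genes moved more: between the tumour groups in microglia-like cells 5 genes were called, 44 with the replicate block, 163 by DESeq2 and 443 with no filter on low counts.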

Other observations

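Among the receptors of the family, Il18r1 and Il18rap, the 2 chains of the IL-18 receptor, averaged 107 and 176 CPM in NK-like cells (3 libraries) and 90.6 and 84.0 CPM in T-like cells (5 libraries), against 0.588 and 1.06 CPM in microglia-like and 1.34 and 4.93 CPM in monocyte/macrophage-like cells. The lowest NK-like or T-like library, at 40.4 CPM for Il18r1 and 28.9 CPM for Il18rap, was above the highest library of both macrophage classes.

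Il1r1, the signalling receptor of both IL-1 ligands, was low in all immune classes, with class means of at most 6.14 CPM, against 18.9 CPM in the non-immune brain cells that passed the sort (2 libraries, 0 and 37.7 CPM). Il1rl1, the receptor of IL-33, averaged 57.9 CPM in T-like and 44.6 CPM in dendritic-like cells, with libraries from 4.62 to 134 CPM in the second class. Il1rl2, the receptor of the IL-36 cytokines, was the receptor gene with the most UMIs in microglia-like cells (15.0 CPM, range 9.35 to 21.6 over 6 libraries). Sigirr, which dampens signalling by these receptors, averaged 43.5 CPM in NK-like and 28.6 CPM in T-like cells and 2.26 CPM in microglia-like cells. These levels are descriptions without a test, since classes were built from the same cells.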
